A study of Mus musculus with 7 samples.

Results

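The genes described here were the 105 of 28666 genes in the deposited expression table that its KEGG column places in the lysosome pathway, after the 14 cathepsins and the transporters Slc11a1 and Slc11a2 had been set aside from the 121 genes with that annotation. KEGG is a curated collection of pathway maps, and 6622 genes of the table carried any KEGG annotation. Membership was set by annotation and used no measured value, though the set was chosen with earlier results of these data known.

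The RNA came from bone marrow derived dendritic cells (BMDCs) of female C57BL/6 mice aged 6 to 8 weeks. Marrow cells were cultured for 7 days with GM-CSF at 20 ng/mL and IL-4 at 10 ng/mL, and then placed in a Transwell system, which separates cells by a porous membrane, beside MC38 cells, a mouse colon adenocarcinoma line. The MC38 cells were exposed to 5 µM DON, a glutamine antagonist, for 24 h, after which immature and mature BMDCs were separated by flow sorting. The study's text places the profiled cells after DON treatment, while a figure legend names cultures with the vehicle DMSO as well. Glutamine supply also differed between its DON and DMSO cultures. No label ties a library to either agent, so by the labels the culture of each library is not known. The labels call 3 libraries immature (immature 1 to 3) and 4 mature (mature 1 to 4), give no drug treatment, no sort markers and no link between same-numbered samples, and do not say whether the libraries came from separate cultures or animals. The p-values therefore measure the spread between these samples only.

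Lysosomes are acidified compartments that take apart proteins, lipids, glycans and nucleic acids delivered by endocytosis, phagocytosis and autophagy. Most soluble acid hydrolases carry a mannose 6-phosphate tag that receptors recognize and that clathrin and adaptor coats carry from the trans-Golgi network to endosomes, while a proton pump, the V-ATPase, keeps the lumen acidic. In dendritic cells the same compartments cut antigen for presentation on MHC class II, and maturation is known to change uptake, acidification and proteolysis.

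The deposited counts summed to between 54846746 and 67973086 reads per library. Libraries of a group differed by more than sampling noise, with a median chi-square per gene between pairs of 3.83 to 4.54 among the immature libraries and 4.26 to 5.27 among mature 1, 2 and 4. Pairs with mature 3 reached 17.7 to 25.6, so that this library stood apart. Relative to mature 1, 2 and 4 it read lower for longer transcripts, with a Spearman rho of -0.716 over the 102 tested members and -0.456 over 17436 tested genes with a known length, a description over genes that share their libraries. Mature 2, 3 and 4 held heart muscle transcripts at 0.0750 to 0.0799% of their counts, against 0.00285% in mature 1 and at most 0.000535% in the immature libraries, and mature 2 alone held kidney tubule transcripts at 0.0211%. No library was at 0 for the dendritic cell markers Itgax, Zbtb46, Ccr7 and Fscn1. The marker Flt3 was near the floor in the immature libraries, at 20 to 36 counts, and at 302 to 484 counts in the mature libraries.

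Lysosome genes were lower in mature BMDCs in most roles. Transcripts of the 105 members took 4.91, 4.90 and 5.01% of all counts in the immature libraries and 2.18, 2.13, 2.16 and 2.25% in the mature libraries. Psap alone took 2.53, 2.56 and 2.64% of the immature counts and 0.624, 0.594, 0.606 and 0.671% of the mature counts. Without Psap, the other members still took 2.34 to 2.37% of immature and 1.54 to 1.58% of mature counts. On the FPKM scale, fragments per kilobase of transcript scaled to library size, the members summed to 14539 ± 33.5 (SD, n = 3) in immature and 5896 ± 183 (SD, n = 4) in mature BMDCs, and without Psap to 5932 ± 82.1 and 3811 ± 102.

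Of the 105 members, 102 had enough counts for a test with edgeR's quasi-likelihood method. A gene was called where the log2 fold change was at least 1 in size and the Benjamini-Hochberg adjusted p over 17461 tested genes was under 0.05. By this rule 36 members (35.3% of those tested) were called lower in mature BMDCs, beside 9.95% of all tested genes. Only 5 members (4.9%) were called higher, beside 13.2% of all tested genes. By adjusted p alone 67 members were lower, beside 22.9% of all genes, and 14 were higher, beside 23.2%. All 4 mature libraries lay below all 3 immature libraries for 70 tested members, beside 26.7% of all genes, and above them for 15, beside 25.4%. The median log2 fold change of the tested members was -0.62, and that of all tested genes was 0.05.

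The 3 members without a test were Dnase2b, a DNase II paralog listed at 0 counts in all 7 libraries, Lamp3 and Atp6v0a4. Lamp3, the LAMP family protein known as DC-LAMP and used as a marker of mature human dendritic cells, was at 0, 0 and 0.248 CPM (counts scaled to library size with edgeR's TMM factors) in immature and at 0, 0.151, 0 and 0.272 CPM in mature BMDCs. It was thus barely detected in either group. Atp6v0a4, a kidney isoform of a V-ATPase subunit, was at 0 in all immature libraries and at 0, 0.544, 0 and 0.048 CPM in mature 1 to 4, highest in the library with kidney tubule transcripts.

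**Figure D1:**
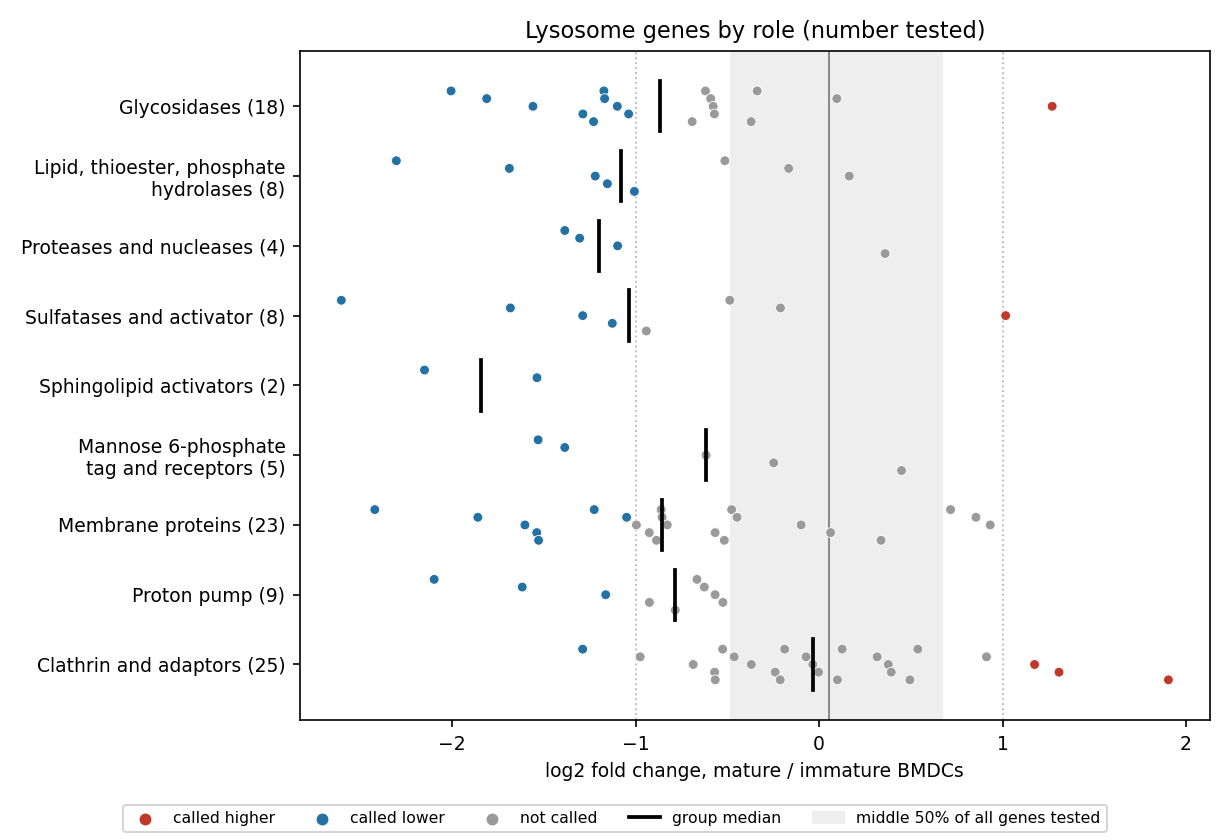
Log2 fold change between mature and immature BMDCs (x axis) of each tested lysosome gene, grouped by role on the y axis. Points are genes, coloured by call, black bars are group medians, dotted lines mark a log2 fold change of 1 in either direction, and the gray band spans the middle of all tested genes, from -0.48 to 0.67. All 9 proton pump genes lie below 0, while the 25 clathrin and adaptor genes spread around a median of -0.03.

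The members' promoters were searched for the E-box-type letters that TFEB and its relatives are known to bind. Many lysosome genes carry a CLEAR element, whose core is CACGTG and whose longer form reads TCACGTGA and contains the core. RefSeq promoter windows of 250 bases before to 50 bases after the start site (GRCm38.p6) were found for 84 of the 105 members. CACGTG, which reads the same on both strands, was in 20 of the 84 (23.8%), beside 8.09% of 27025 genes with a window and 11.2% of the 11651 tested genes with a window. TCACGTGA, also its own reverse complement, was in 8 (9.52%), beside 1.12% and 2.0%. Among members called lower CACGTG was in 10 of 29 windows (34.5%), among tested members called neither in 9 of 48 (18.8%), among those called higher in 1 of 4, and among clathrin and adaptor genes in 2 of 22. TCACGTGA was in 4 of the 29 and in 4 of the 48. Below are the stretches around TCACGTGA, in capitals, for 4 genes called lower and for Mcoln1, a gene with the same 8 letters that was not called. They were chosen for the motif, and the log2 fold changes were -1.86, -1.23, -2.01 and -1.53 for the first 4 genes and -0.10 for Mcoln1. The other 3 genes with these letters, Atp6v0d1, Sumf1 and Gnptg, were not called either, with log2 fold changes of -0.67, -0.49 and 0.45, and are not printed because the letters lie close to the start site. Apobr overlaps Cln3 on the opposite strand and had a log2 fold change of -1.2. How counting treated strand was not given, so reads of Apobr and Cln3 may be shared.
Cd164, chr10:41519392-41519439, plus strand: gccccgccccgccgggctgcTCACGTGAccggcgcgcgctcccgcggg
Cln3, chr7:126583331-126583378, minus strand: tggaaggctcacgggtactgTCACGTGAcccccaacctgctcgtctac
Gla, chrX:134601206-134601253, minus strand: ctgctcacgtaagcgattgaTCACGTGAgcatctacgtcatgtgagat
Igf2r, chr17:12769728-12769775, minus strand: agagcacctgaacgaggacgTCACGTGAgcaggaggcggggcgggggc
Mcoln1, chr8:3500453-3500500, plus strand: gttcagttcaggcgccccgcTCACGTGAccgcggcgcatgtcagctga
Relative to the start site, the first base of the motif was at -88, -122, -228, -49 and -46 in this order, and the windows of Gla and Igf2r held the letters again at -195 and -8. A match describes letters in the window and is not evidence that a factor bound there.

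Both sphingolipid activators fell, and Psap was the member of highest level in every library. Psap (chr10:60277627-60302597), which encodes prosaposin, the precursor of saposins A to D that present sphingolipids to their hydrolases, was at 26472, 26379 and 27809.8 CPM in immature and 5886, 5548, 6287 and 6488 CPM in mature BMDCs. The groups were far apart, and the log2 fold change was -2.15 ± 0.09 (SE; edgeR adjusted p = 4.94e-07). By FPKM Psap ranked 2nd among all genes in each immature library and between 18th and 24th in the mature libraries, at 8607 ± 61.2 (SD, n = 3) and 2086 ± 118 (SD, n = 4) FPKM. Gm2a, the GM2 activator that lifts ganglioside GM2 out of the membrane for its hydrolase, was at 1181, 1127 and 1289.9 CPM in immature and 396, 390.0, 436 and 430.1 CPM in mature BMDCs. It fell by 1.54 ± 0.08 on the log2 scale (edgeR adjusted p = 1.78e-06), with no overlap between the groups.

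**Figure D2:**
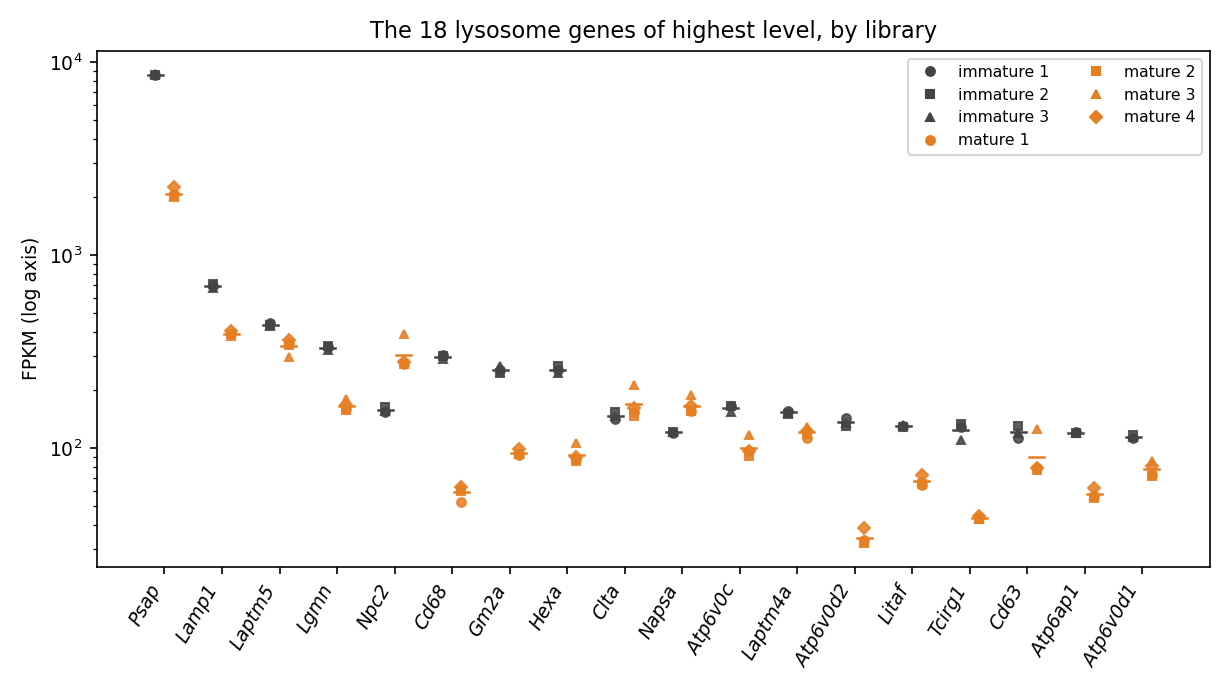
FPKM on a log axis of the 18 lysosome genes with the highest group mean, each library as a point (gray, 3 immature; orange, 4 mature) and each group mean as a bar. Psap stands above all others at 8607 and 2086 FPKM, and Npc2, Napsa and Clta are the 3 genes whose mature mean lies above the immature mean.

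Glycosidases, which strip sugars from glycans and glycolipids, were lower as a group. The group also holds Aga and Hgsnat, which are not glycosidases in the strict sense. Of 18 tested, 9 were called lower and 1 higher, beside 9.95% and 13.2% of all tested genes. Their median log2 fold change was -0.87. Gla, the alpha-galactosidase deficient in Fabry disease, was at 118, 109 and 112 CPM in immature and 26.4, 26.4, 30.5 and 29.3 CPM in mature BMDCs. The mature libraries were close together and far below the immature ones, and the log2 fold change was -2.01 ± 0.09 (edgeR adjusted p = 5.49e-07). Man2b1, the lysosomal alpha-mannosidase, was at 854, 814 and 869.6 CPM against 240.0, 238, 224 and 262 CPM, a log2 fold change of -1.81 ± 0.08.

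Hexa, the Tay-Sachs disease gene, whose product degrades the ganglioside that Gm2a presents, was at 569.9, 591 and 573 CPM in immature and 181, 174, 239 and 189 CPM in mature BMDCs, with mature 3 highest among the mature libraries. Its log2 fold change was -1.56 ± 0.11 (edgeR adjusted p = 9.33e-06), with levels of 254 ± 9.88 and 92.5 ± 8.98 FPKM (SD, n = 3 and 4). Gaa, the glycogen-degrading alpha-glucosidase, was called lower at a log2 fold change of -1.17, and the sialidase Neu1 at -1.04. The Neu1 call rested on values close to the threshold, and without mature 2 its log2 fold change was -0.997.

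Not all glycosidases passed the fold criterion. Glb1, the lysosomal beta-galactosidase, was at 121, 115 and 117 CPM in immature and 77.4, 80.6, 77.1 and 80.2 CPM in mature BMDCs, a log2 fold change of -0.58 ± 0.07 (edgeR adjusted p = 0.000149) with no overlap between the groups. Fuca1, an alpha-fucosidase, overlapped between the groups at 199 to 217 and 201 to 258 CPM, with a log2 fold change of 0.10 (edgeR adjusted p = 0.464).

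Galc went the other way. This gene encodes galactocerebrosidase, the enzyme missing in Krabbe disease, and was at 54.9, 50.5 and 56.1 CPM in immature and 144, 139.5, 109.7 and 126 CPM in mature BMDCs. All mature libraries lay above all immature libraries, and the log2 fold change was 1.27 ± 0.11 (edgeR adjusted p = 2.54e-05). Galc and Psap therefore moved in opposite directions, although saposins derived from Psap are known to assist this enzyme.

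Among the 8 hydrolases of lipids, thioesters and phosphate esters, 5 were called lower and none higher, beside 9.95% and 13.2% of all tested genes. Their median log2 fold change was -1.08. Lipa, the lysosomal acid lipase that frees cholesterol and fatty acids from lipoprotein lipid, was at 759, 657 and 731 CPM in immature and 158, 155, 116 and 151 CPM in mature BMDCs. Mature 3 was lowest, and the log2 fold change was -2.30 ± 0.12 (edgeR adjusted p = 1.47e-06), or -2.19 without mature 3. Acp5, the tartrate-resistant acid phosphatase of osteoclasts and some macrophages, was at 139.8, 151 and 153 CPM against 40.6, 44.1, 51.6 and 47.4 CPM, a log2 fold change of -1.69 ± 0.10. Asah1, the acid ceramidase, was at 416, 385 and 415 CPM against 186, 179.7, 171 and 191 CPM, a log2 fold change of -1.15 ± 0.07. Smpd1, the acid sphingomyelinase that makes the ceramide Asah1 cleaves, overlapped between the groups at 23.8 to 29.2 and 20.7 to 26 CPM, with a log2 fold change of -0.17 ± 0.11 (edgeR adjusted p = 0.261). The phospholipase Pla2g15 also overlapped, at 137 to 149 and 134 to 179.7 CPM.

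Of the 4 tested proteases and nucleases outside the cathepsins, 3 were called lower, beside 9.95% of all tested genes. Lgmn encodes legumain, an asparaginyl endopeptidase that also activates cathepsins. It was at 875, 875 and 871 CPM in immature and 384, 371, 472 and 405 CPM in mature BMDCs, with a log2 fold change of -1.10 ± 0.10 (edgeR adjusted p = 2.64e-05). Tpp1, a tripeptidyl peptidase, was at 345, 322 and 345 CPM against 140.1, 131, 108 and 138 CPM, a log2 fold change of -1.39 ± 0.10. Dnase2a, the main lysosomal DNase, was at 123, 129.6 and 124 CPM against 49.4, 40.1, 63.7 and 49.7 CPM, a log2 fold change of -1.31 ± 0.14 (edgeR adjusted p = 9.01e-05). For all 3 genes the groups stayed apart. The aspartic protease Napsa was higher by adjusted p alone, at 358, 362 and 377 CPM against 427, 419, 569 and 462 CPM, with a log2 fold change of 0.36 ± 0.12 (edgeR adjusted p = 0.0323).

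Sulfatases, which remove sulfate from glycosaminoglycans and sulfolipids, were mostly lower as well. Of 8 genes, which include the sulfatase activator Sumf1, 4 were called lower and 1 higher, beside 9.95% and 13.2% of all tested genes. Arsg, an arylsulfatase, had the lowest log2 fold change of any member, -2.60 ± 0.23 (edgeR adjusted p = 3.07e-05), on low levels of 25.1, 23.8 and 22.6 CPM against 4.33, 3.4, 2.5 and 5.41 CPM. With limma on log2(FPKM + 1), a scale that understates changes of low genes, it was -1.72. Members that then had lower values included Cd68, Psap, Lipa, Atp6v0d2 and Gla. The gene Slc16a6 lies on the opposite strand within the Arsg interval and had a log2 fold change of -2.55. Reads of the 2 genes can be told apart only if the counting used strand, which was not given in the sources used here. Ids, the iduronate sulfatase deficient in Hunter syndrome, was at 70.7, 64.1 and 69.6 CPM against 150.2, 156, 101 and 145 CPM, a log2 fold change of 1.02 ± 0.15 (edgeR adjusted p = 0.000603). All mature libraries were above the immature ones, yet the fold lay at the threshold, and it was 0.97, 0.98 and 0.96 on the log2 scale without immature 2, mature 1 and mature 2, respectively.

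**Figure D3:**
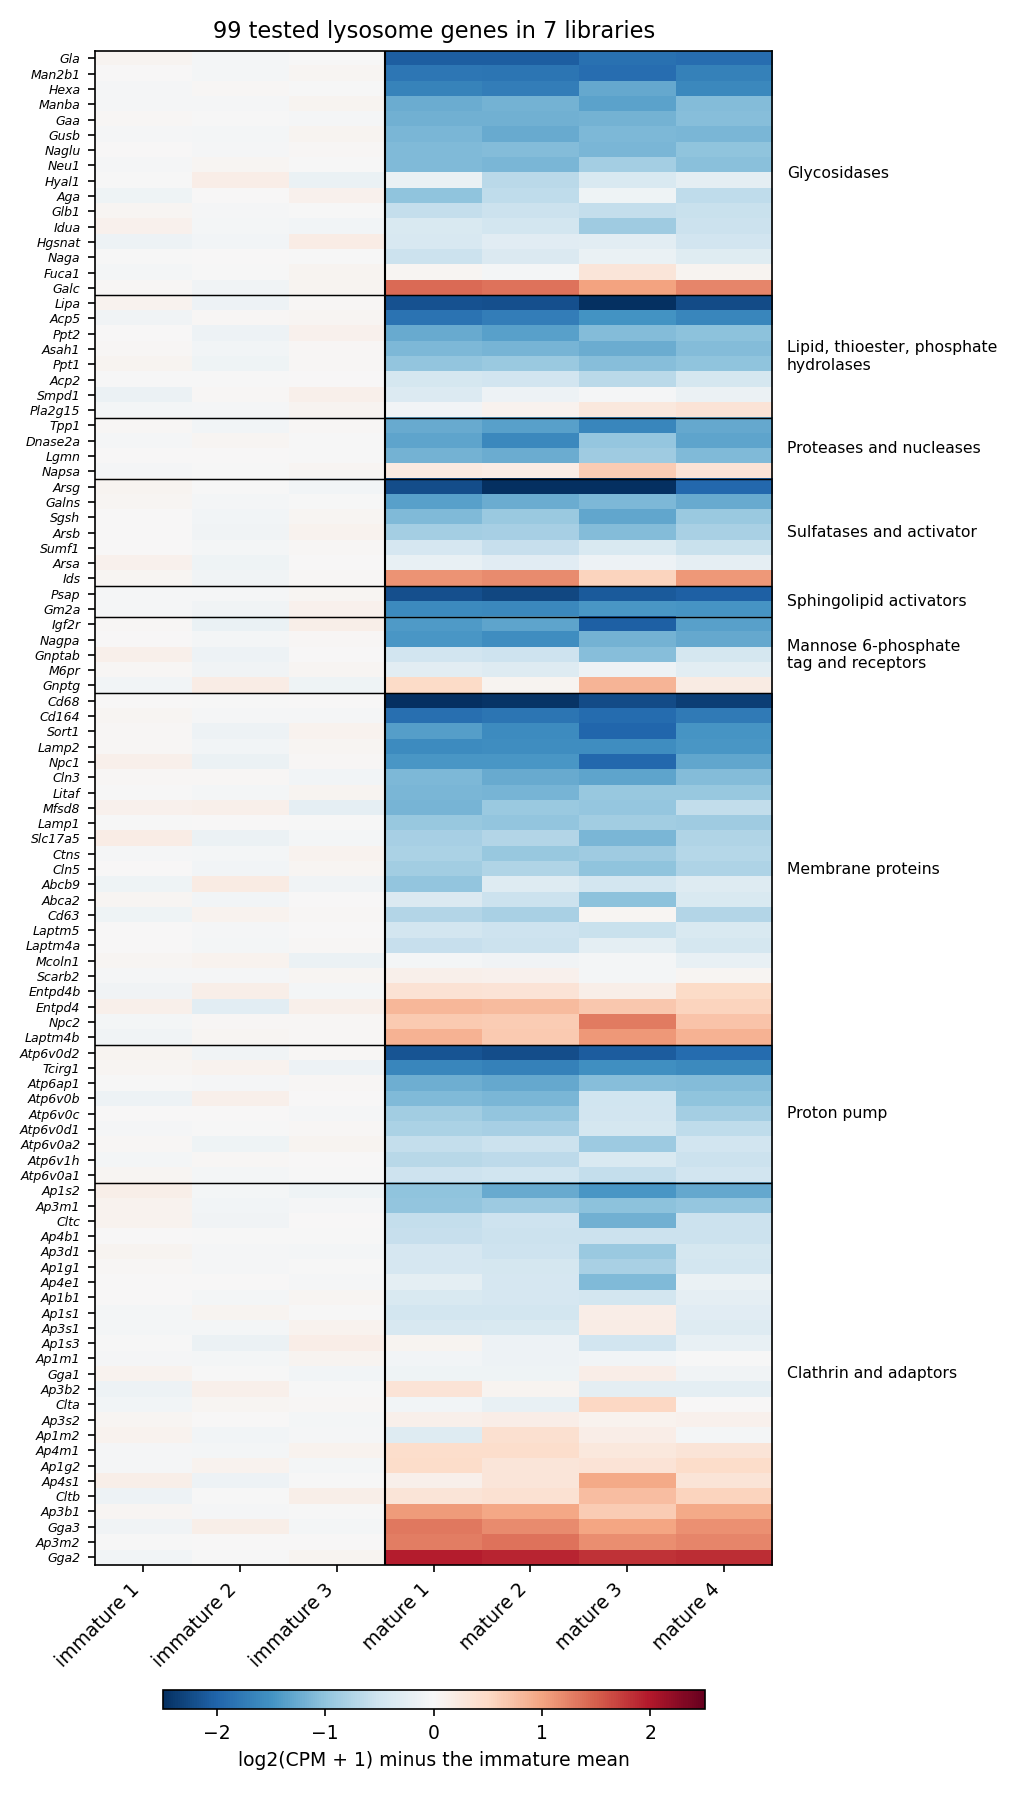
Log2(CPM + 1) of 99 of the 102 tested lysosome genes minus the mean of the immature libraries (color), for 7 libraries in columns and genes in rows ordered by role and by fold change. Color saturates at 2.5 in either direction. The 4 mature columns are blue for most hydrolases, membrane proteins and pump subunits and mixed for clathrin and adaptors, and mature 3 departs from the other mature columns for genes such as Cd63, Npc2 and Cltc.

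The tested proton pump genes of the KEGG set were all lower, while subunits outside it, given below, were mixed. All 9 tested members were lower at an adjusted p under 0.05, beside 22.9% of all tested genes. They lay below the immature range in all mature libraries, beside 26.7% of all tested genes. Past the fold criterion were 3 of them, beside 9.95%, and the median log2 fold change was -0.78. Atp6v0d2, a d subunit isoform of the membrane sector known from osteoclasts, macrophages and dendritic cells, was at 439, 395 and 426 CPM in immature and 93.6, 89.8, 98.7 and 110.4 CPM in mature BMDCs. Its log2 fold change was -2.10 ± 0.09 (edgeR adjusted p = 6.47e-07), whereas its widely expressed paralog Atp6v0d1 differed by -0.67. Tcirg1, the a3 subunit of lysosomal pumps, was at 669, 686 and 591 CPM against 208, 201, 223 and 214 CPM, a log2 fold change of -1.62 ± 0.08, while the paralogs Atp6v0a1 and Atp6v0a2 differed by -0.52 and -0.63. The differences between paralogs were not tested. Atp6ap1, an accessory subunit, was called lower at -1.16 ± 0.08, and Atp6v1h, a regulatory subunit of the cytosolic sector, was at 93.1, 97.7 and 96.4 CPM against 59.1, 60.2, 73.7 and 65.5 CPM, a log2 fold change of -0.57 ± 0.09 (edgeR adjusted p = 0.00117). Atp6v0b, at -0.93, met both criteria when mature 3 was left out, at -1.07.

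Of 23 tested membrane proteins 7 were called lower and none higher, beside 9.95% and 13.2% of all tested genes. By adjusted p alone 15 were lower and 4 higher, beside 22.9% and 23.2%. Cd68, a heavily glycosylated LAMP family protein of macrophages, was at 429, 421 and 425 CPM in immature and 68.6, 76.6, 89.1 and 82.8 CPM in mature BMDCs. Its log2 fold change of -2.42 ± 0.10 (edgeR adjusted p = 4.94e-07) was the lowest of the group. Cd164, a sialomucin, was at 332, 317 and 316 CPM against 86.1, 89.6, 84.6 and 94.2 CPM, a log2 fold change of -1.86 ± 0.07.

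Lamp1 and Lamp2, the most abundant glycoproteins of the lysosomal membrane, were both lower. Lamp2 was at 848, 794 and 861 CPM in immature and 279, 283, 284 and 302 CPM in mature BMDCs, and fell by 1.54 ± 0.07 on the log2 scale (edgeR adjusted p = 9.18e-07). Lamp1 was at 2096, 2124 and 2103 CPM against 1086, 1061, 1155 and 1134 CPM, a log2 fold change of -0.93 ± 0.07 (edgeR adjusted p = 1.29e-05) that did not reach the fold criterion. Lamp1 was the member of highest level after Psap, at 692 ± 19.1 and 392.1 ± 9.4 FPKM (SD, n = 3 and 4).

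Npc1 and Npc2, which act together in moving cholesterol out of lysosomes, went in opposite directions. Npc1, the membrane protein, was at 413, 346 and 386 CPM in immature and 138, 139, 97.1 and 154 CPM in mature BMDCs, a log2 fold change of -1.53 ± 0.15 (edgeR adjusted p = 5.51e-05). Npc2, the soluble sterol carrier, was at 940.1, 993 and 993 CPM against 1541, 1512, 2407 and 1595 CPM, a log2 fold change of 0.85 ± 0.17 (edgeR adjusted p = 0.0032). Mature 3 stood far above the other mature libraries for Npc2, which remained higher without it at a log2 fold change of 0.69. Npc2 was thus higher in 4 of 4 mature libraries but under the fold criterion.

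Litaf, a late endosomal membrane protein named for its link to lipopolysaccharide, was at 756, 737 and 794 CPM in immature and 343, 339, 396 and 394 CPM in mature BMDCs, a log2 fold change of -1.05 ± 0.09 (edgeR adjusted p = 2.02e-05). Laptm5, a lysosomal protein of blood cells, was at 1899, 1849 and 1903 CPM against 1376, 1317, 1276 and 1444 CPM, a log2 fold change of -0.48 ± 0.08. Laptm4b, at low level, was at 10.3, 11.4 and 11.2 CPM against 20.8, 17.8, 24.5 and 20.8 CPM, a log2 fold change of 0.93 ± 0.13 (edgeR adjusted p = 0.000366). It met both criteria without mature 2, at 1.01, with upper quartile scaling, at 1.04, with library totals alone, at 1.03, and with limma on log2(FPKM + 0.1), at 1.02.

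Other landmark proteins of the membrane did not separate the groups. Cd63, a tetraspanin of late endosomes and of MHC class II compartments, was at 468, 538 and 514 CPM in immature and 303, 287, 522 and 304 CPM in mature BMDCs. Mature 3 lay inside the immature range and the log2 fold change was -0.52 ± 0.21 (edgeR adjusted p = 0.0696), or -0.74 (adjusted p = 5.25e-06) without mature 3. Scarb2, the abundant membrane protein LIMP-2, was at 192 to 205 and 190.5 to 216 CPM, with a log2 fold change of 0.06 ± 0.08 (edgeR adjusted p = 0.541). Mcoln1, the calcium channel TRPML1, was at 59.6, 60.9 and 52 CPM against 55.7, 53.9, 55.1 and 50.1 CPM, with a log2 fold change of -0.10 ± 0.09 whose sign turned under other scalings. In contrast, the neighbouring paralogs Entpd4 and Entpd4b, whose reads may be shared, were higher in all mature libraries by adjusted p alone, with log2 fold changes of 0.72 and 0.34 (edgeR adjusted p = 0.00148 and 0.0275).

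Of 5 genes of the mannose 6-phosphate tag and its receptors, 2 were called lower and none higher. The shares of all tested genes were 9.95% and 13.2%. Igf2r, the large cation-independent receptor, was at 156, 137 and 171 CPM in immature and 56.8, 61.2, 36.4 and 59.3 CPM in mature BMDCs. All mature libraries were below the immature ones, mature 3 lowest, and the log2 fold change was -1.53 ± 0.18 (edgeR adjusted p = 0.000136). M6pr, the small cation-dependent receptor, was at 362, 335 and 366 CPM against 294, 281, 324 and 294 CPM, a log2 fold change of -0.25 ± 0.08 (edgeR adjusted p = 0.0328). Leaving out any library other than mature 3 put the adjusted p of M6pr over 0.05, at 0.0504 to 0.121. By FPKM M6pr was the more abundant receptor in both groups, at 74.6 ± 2.58 and 67.6 ± 1.0 FPKM beside 14.6 ± 1.31 and 5.48 ± 1.37 FPKM for Igf2r (SD, n = 3 and 4). Nagpa, the uncovering enzyme that exposes the tag, was at 92.5, 89.0 and 93.2 CPM against 32.9, 30.7, 39.6 and 37.0 CPM, a log2 fold change of -1.39 ± 0.10. Sort1, which encodes sortilin, a sorting receptor that does not need the tag, was at 166, 149 and 173 CPM against 61.6, 53.9, 40.4 and 58.0 CPM, a log2 fold change of -1.60 ± 0.14 (edgeR adjusted p = 2.66e-05).

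Clathrin and adaptor genes, the coat proteins of vesicle traffic, were the role in which the median lay near 0. Of 25 tested, 3 were called higher and 1 lower, beside 13.2% and 9.95% of all tested genes. By adjusted p alone 7 were higher and 7 lower, beside 23.2% and 22.9%. Apart from the 1 called lower, these counts lie near the shares of all tested genes. The GGA proteins are monomeric adaptors that bind mannose 6-phosphate receptors at the trans-Golgi network. Gga2 (chr7:121986722-122021222) was at 51.1, 53.0 and 56.2 CPM in immature and 212, 203, 189 and 195 CPM in mature BMDCs. Its log2 fold change of 1.90 ± 0.08 (edgeR adjusted p = 5.63e-07) was the highest of any member. Gga3 was at 46.6, 55.1 and 48.1 CPM against 125, 114, 99.97 and 112 CPM, a log2 fold change of 1.17 ± 0.10 (edgeR adjusted p = 2.83e-05). Gga1 overlapped between the groups at 124 to 139 and 121 to 146 CPM. Per length the order of the 3 GGA genes was Gga1, Gga3, Gga2 in immature BMDCs at 30.6 ± 2.24, 7.03 ± 0.745 and 4.8 ± 0.151 FPKM, and the values in mature BMDCs were 32.0 ± 1.61, 17.1 ± 2.21 and 19.4 ± 1.76 FPKM, with Gga2 above Gga3 in 4 of 4 mature libraries.

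The mu subunits of the AP-3 adaptor, which serves traffic to lysosomes and related organelles, moved in opposite directions. Ap3m1, the widely expressed form, was at 167, 151 and 154 CPM in immature and 79.1, 83.5, 77.0 and 80.5 CPM in mature BMDCs, a log2 fold change of -0.98 ± 0.07 (edgeR adjusted p = 1.04e-05), just short of the fold criterion. Without immature 2 it was -1.01 and met both criteria. Vcl overlaps Ap3m1 on the opposite strand and had a log2 fold change of -1.145, at mean counts of 6416 in immature and 3058 in mature BMDCs. Reads of these 2 genes, too, can be told apart only if the counting used strand. Ap3m2, known as the neuronal form, was at 15.8, 15.9 and 16 CPM against 39.9, 42.0, 36.9 and 38.6 CPM, a log2 fold change of 1.31 ± 0.09 (edgeR adjusted p = 4.95e-06). In FPKM, Ap3m1 was at 19.7 ± 1.21 and Ap3m2 at 3.08 ± 0.0603 in immature BMDCs, and they were at 10.8 ± 0.833 and 8.24 ± 0.816 in mature BMDCs. The beta subunit Ap3b1 was at 190.3, 181 and 182 CPM against 385, 362, 286 and 357 CPM, a log2 fold change of 0.91 ± 0.11 that was 1.02 without mature 3. Ap1s2, a sigma subunit of AP-1, was the member of this role called lower, at 50.6, 44.1 and 42.3 CPM against 22, 18.5, 15.9 and 18.2 CPM, a log2 fold change of -1.29 ± 0.12 (edgeR adjusted p = 4.72e-05). Clathrin heavy chain Cltc differed by -0.69 ± 0.16 and light chain Clta by 0.10 ± 0.16 on the log2 scale, and mature 3 was the extreme library for both.

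**Figure D4:**
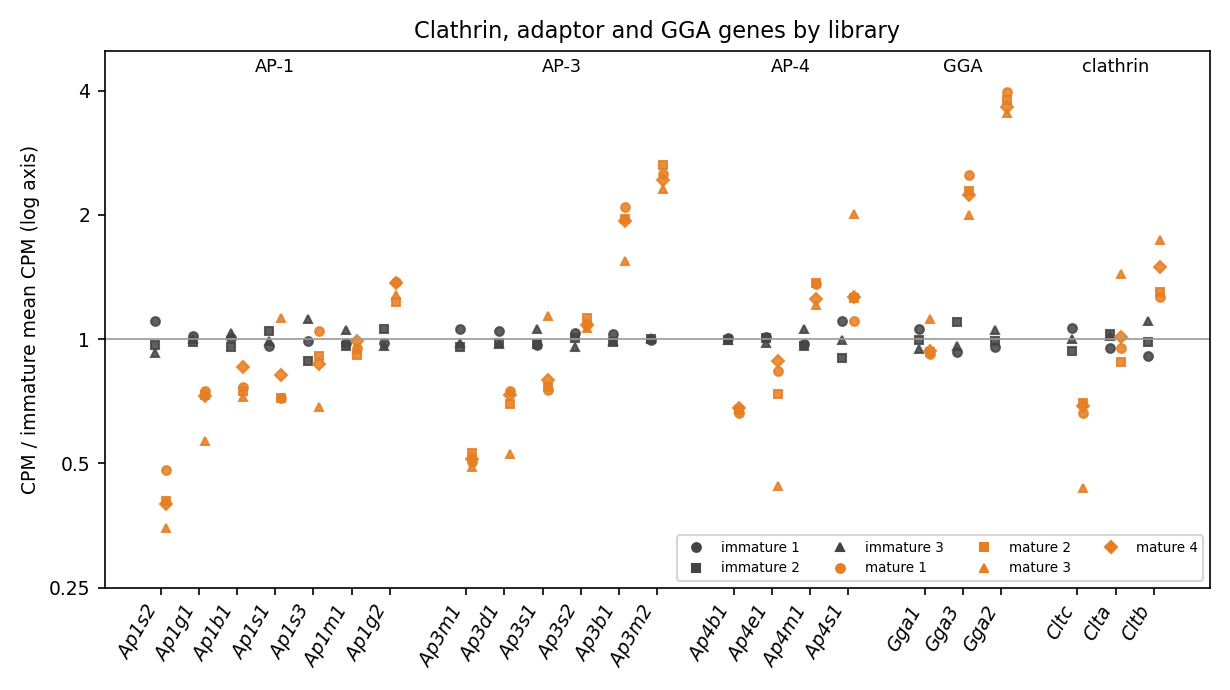
CPM in each library divided by the immature mean (log axis) for the clathrin, AP and GGA genes with a mean of at least 1 CPM in a group, grouped by complex. Gray points are the 3 immature and orange points the 4 mature libraries. Gga2, Gga3 and Ap3m2 lie above 1 in all mature libraries, Ap1s2 and Ap3m1 lie below, and triangles of mature 3 are often the farthest from the other mature points.

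Genes listed as serving lysosomes but outside the KEGG set were taken from 5 lists of 81 genes in the table, 79 of them tested. In all, 24 were called lower, beside 9.95% of all tested genes, and 6 higher, beside 13.2%. Their median log2 fold change was -0.65. The lists were chosen with earlier results of these data known. The MiT/TFE factors, which drive lysosomal gene transcription and bind the CLEAR letters shown above, were lower in all mature libraries. Tfec was at 72.1, 71.3 and 74.6 CPM in immature and 15.0, 14.3, 16.4 and 16.1 CPM in mature BMDCs, a log2 fold change of -2.23 ± 0.08 (edgeR adjusted p = 4.07e-07). Mitf was at 73.5, 57.7 and 64.5 CPM against 20.3, 22.3, 16.2 and 22.3 CPM, a log2 fold change of -1.68 ± 0.14. Tfeb, at 47.4, 51.4 and 50.1 CPM against 26.2, 26.8, 45 and 30.2 CPM, and Tfe3, at 115, 113 and 112 CPM against 74.6, 72.1, 69.3 and 70.5 CPM, differed by -0.63 ± 0.18 and -0.67 ± 0.07 (edgeR adjusted p = 0.0209 and 6.73e-05), short of the fold criterion. RNA levels of these factors do not show their activity, which is known to be set by phosphorylation and nuclear entry.

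Of 25 genes listed as other lysosomal proteins, 16 were called lower and 1 higher, beside 9.95% and 13.2% of all tested genes. Not all of them encode proteins of the lysosome. Plin2 and Pla2g4a, which do not, were both called lower, at log2 fold changes of -1.46 and -2.44. Lyz2, the lysozyme of myeloid cells, was at 11692, 11792 and 12312 CPM in immature and 1326, 1205, 1718 and 1518 CPM in mature BMDCs, a log2 fold change of -3.05 ± 0.13. Its paralog Lyz1 may share reads with it. Grn, the precursor of lysosomal granulins that binds sortilin and prosaposin, was at 1722, 1762 and 1734 CPM against 382, 352, 451 and 388 CPM, a log2 fold change of -2.14 ± 0.10 (edgeR adjusted p = 7.13e-07), close to that of Psap. Slc36a1, a proton-coupled amino acid transporter, differed by -3.04 ± 0.15 and the TRPML channel Mcoln3 by -2.31 ± 0.19, the latter at 5.97 to 7.39 CPM against 1.12 to 1.6 CPM. Ifi30, the thiol reductase GILT that unfolds antigen for MHC class II, was the gene of this list called higher, at 175, 181 and 187 CPM against 381, 424, 647 and 457 CPM, a log2 fold change of 1.40 ± 0.17 (edgeR adjusted p = 0.000225). The genes of this list named here were picked after their values were seen.

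Of 11 tested V-ATPase subunits outside the KEGG set, 3 were called lower (Atp6v1a, Atp6v1c1 and Atp6ap2), beside 9.95% of all tested genes. Only Atp6v1g2 was called higher, beside 13.2%, at 1.43 to 1.56 against 3.39 to 4.29 CPM. By adjusted p alone 7 were lower and 2 higher, beside 22.9% and 23.2%. Atp6v0e was at 218, 234 and 210 CPM against 284, 277, 459 and 305 CPM. Its log2 fold change was 0.59 (edgeR adjusted p = 0.0243). Atp6v1f overlapped between the groups, with a log2 fold change of -0.09. Of 17 genes of mTORC1 docking, the nutrient sensing platform on the lysosomal surface, 2 were called lower and 2 higher. Both counts of the mTORC1 docking list lie near the shares of all tested genes, 9.95% lower and 13.2% higher. Fnip2, a folliculin partner, was at 186, 176 and 165 CPM against 47.2, 44.6, 34.2 and 47.2 CPM (log2 fold change -2.02 ± 0.12), and Lamtor3 differed by -1.09. Rptor, the raptor subunit, was at 63.7, 57.9 and 61.8 CPM against 173, 159.7, 127 and 166 CPM (log2 fold change 1.36 ± 0.12), and Rragb was at 0 to 0.204 against 1.1 to 1.96 CPM. Of 22 genes of lysosome tethering, positioning and fusion, Vps39 and Plekhm2 were called higher, at log2 fold changes of 1.02 and 1.07, and Plekhm1 lower at -1.27. The median of this list was 0.14, and its counts of calls do not exceed the shares over all tested genes.

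Markers of other cells moved with these results. Of 10 macrophage markers 9 were called lower in mature BMDCs, beside 9.95% of all tested genes. The FPKM of the 10 markers summed to 689 to 713 in immature and 131 to 147 in mature libraries. Of the defining ones, Csf1r was at 691 to 754 and 110.1 to 124 CPM, Mrc1 at 140.3 to 167 and 13.2 to 15.8 CPM, and Cd163 near 0 in both groups, at 0.93 to 1.76 and 0.682 to 1.12 CPM. Of 9 dendritic cell markers 4 were called higher (Flt3, Zbtb46, Ccr7 and Fscn1) and none lower, beside 13.2% and 9.95% of all tested genes. By adjusted p alone 6 were higher and 1 lower, beside 23.2% and 22.9%. The transcription factor Zbtb46 was at 24.3 to 27.0 and 98.0 to 109 CPM, whereas the integrin Itgax (CD11c) was lower in all mature libraries, at 1288 to 1464 and 874 to 1144 CPM, with a log2 fold change of -0.41 (edgeR adjusted p = 0.0124). Of 6 osteoclast markers, which are of interest because Acp5, Tcirg1 and Atp6v0d2 are osteoclast genes, 4 were tested. All 4 were lower by adjusted p, beside 22.9% of all tested genes. Ctsk and Mmp9 were called lower, Dcstamp was at 140.0 to 143 and 102.7 to 121 CPM and Ocstamp at 27.6 to 35.4 and 19.1 to 26.0 CPM (log2 fold changes of -0.37 and -0.48), and the defining genes Oscar and Calcr were at 0 to 0.176 and 0 to 0.106 CPM over all libraries. Their part in the result was not tested. In RNA from sorted cell populations, fewer cells of a type and less RNA per cell cannot be told apart.

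**Figure D5:**
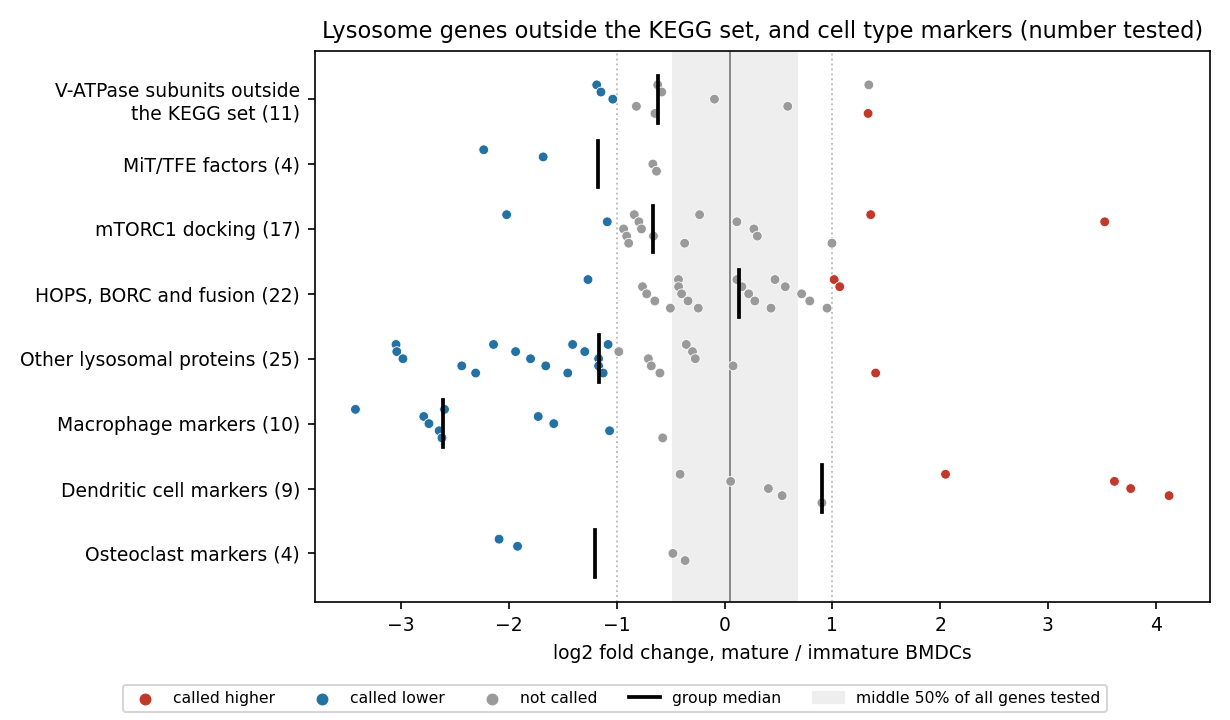
Log2 fold change between mature and immature BMDCs (x axis) of tested genes in 5 lists of lysosome genes outside the KEGG set and 3 lists of cell type markers, with points, bars, dotted lines and gray band as in the plot of the KEGG members by role. The median is -1.17 for the 25 genes listed as other lysosomal proteins and 0.14 for the 22 tethering and fusion genes. It is -2.61 for the 10 macrophage markers and 0.90 for the 9 dendritic cell markers.

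The named members that were called kept their direction under each alternative normalization, filter and test tried, and the counts of members called stayed between 28 and 37 lower and between 4 and 7 higher.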

How the data were processed

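Gene-level RNA-seq was measured in 7 libraries of sorted BMDCs (3 immature, 4 mature). Per the labels, poly(A) RNA was sequenced as dUTP-marked paired-end libraries. The submitters' processing notes name cutadapt 1.9, HISAT2 2.2.1, StringTie 2.1.6, DESeq2, edgeR and the build mm9. The deposited table holds read counts per gene, not normalized, and FPKM values calculated by the authors. How counting treated strand was not given in the sources used here. The table's gene coordinates had the same start as GENCODE M21 (GRCm38) for 99.5% of 28588 matched identifiers, so GRCm38 positions are printed. All 7 pairs of columns were matched to samples by title.

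Counts were tested with edgeR 4.0.16 (TMM scaling, filterByExpr at its defaults, quasi-likelihood F test, immature against mature), with the study's own criteria, a log2 fold change of 1 or more in size at an adjusted p below 0.05. CPM uses TMM-scaled library sizes. SE was derived from the F test, as the size of the log2 fold change over the square root of F. Alternatives used DESeq2 1.42.0 and limma 3.58.1 on log2(FPKM + 1) and log2(FPKM + 0.1). All fits were first tested on simulated counts. The members, roles and lists were chosen with earlier results of these data known. Named members were 30 landmark genes, up to 2 members per role with the largest rise and fall past the criteria, and any member making up a count of 5 or fewer, 46 in all, and other genes were named after their values were seen. The values of 3 members that enter the counts are not reported here. Promoter letters were searched in RefSeq windows by exact match. Of the members, 51 overlap another gene of the table, 15 on the same strand. Of the listed genes, Vamp7, Slc66a1 and Elane were not analysed here. R 4.3.3 and Python 3.11.15 were used.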

Additional observations from a re-analysis of the deposited data

Results flagged for a closer look

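For 3 named values among the 44 compared, the gap from 1 mature library to the nearest of the others took more of the range of the 4 mature libraries than Dixon's limit at the 95% level, where chance gives about 2.2 such values in 44. All 3 were in mature 3. For Cd63 the gap was 0.927 of the range, with mature 3 at 522 CPM and the others at 287 to 304 CPM. For Npc2 it was 0.907, with mature 3 at 2407 CPM and the others at 1512 to 1595 CPM. For Lipa it was 0.839, with mature 3 at 116 CPM and the others at 151 to 158 CPM. Mature 3 read lower for longer transcripts than mature 1, 2 and 4 did, and the part of this in the 3 values was not tested.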

How the results depend on the processing

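The counts of members stayed within 1.5 times the reported counts under all 16 alternatives. Leaving out each library in turn gave 35 to 37 members lower and 4 to 6 higher, and 28 to 31 of the related genes called. DESeq2 gave 35 lower and 5 higher, no filter 35 and 5, the FPKM filter 34 and 5, limma on log2(FPKM + 1) 28 and 5, limma on log2(FPKM + 0.1) 30 and 7, and both upper quartile scaling and library totals alone 31 and 7. These scalings moved the median log2 fold change of all genes from 0.05 to 0.17 and 0.16, and that of the members from -0.62 to -0.51. Of 688 values of 43 named genes, 661 kept their direction and side of the criteria. Only Mcoln1 changed sign, at log2 fold changes of 0.0083 and 0.0098 with limma (pseudocounts 1 and 0.1), 0.013 with upper quartile scaling and 0.0068 with library totals, and the cause was not tested. Lost calls, those of Ids, Neu1, Lgmn, Litaf and Ap1s2 among the named genes, had log2 fold changes within about 0.1 of the threshold. The replicate block gave 37 members lower, 4 higher, and 75 with adjusted p under 0.05 beside 81. Deviations of same-numbered samples from their group means correlated over genes at 0.0285, -0.00114 and 0.0144. Samples with different numbers ran from -0.0484 to 0.036. These values give no sign of a pairing, and whether same-numbered samples share a culture or animal was not tested. Without mature 1 and mature 3 together, 35 were lower and 5 higher. Lamp3, Atp6v0a4 and Dnase2b had too few counts for a test.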
